A study of Mus musculus with 6 samples.

Results

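Adenosine and the other purine nucleosides reach the gut from food, from shed cells and from ATP released by the epithelium. At the surface of mature enterocytes, ecto-enzymes strip phosphate from nucleotides, and concentrative carriers of the Slc28 family take up the nucleosides together with sodium. Inside the cell, deamination and phosphorolysis lead from adenosine and guanosine to hypoxanthine, guanine and xanthine, and in the end to urate. In mouse intestine several of these genes are known for high expression towards the villus tip, where enterocytes are oldest.

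The genes described here are Enpp3 and Nt5e (ecto-enzymes), Slc28a1 and Slc28a2 (nucleoside carriers), and Ada, Pnp, Gda and Xdh (enzymes of intracellular breakdown). They were chosen by name as a pathway, and all 8 were found among the 21397 genes of the table. RNA was sequenced from small intestinal organoids, which are crypt cells grown in gel into closed buds of epithelium, and which have crypt-like and villus-like regions but no villi. The study's results describe these organoids as ileal. All organoids came from Fpr2 f/f mice, which carry the floxed Fpr2 allele, and the labels name no Cre. The 3 Control libraries received 0.1% DMSO and the 3 MMK-1 libraries received MMK-1, a peptide agonist of formyl peptide receptor 2 (FPR2), both until day 5. The protocol gives 1 μM MMK-1, whereas the treatment label reads 1 mM. The study states that each sample held organoids of 3 mice and that its mice were young adults, and the labels do not say whether both groups shared mice. The comparison asks which genes of the pathway differed between organoids with and without the FPR2 agonist.

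Levels are FPKM, that is, fragments divided by the length of the gene and by the total of the library. Library totals lay between 35512739 and 37537463 fragments. MMK-1 replicate 3 stood apart from the other MMK-1 libraries, with a chi-square per gene of 29.4 and 34.4 against them, compared with 3.46 between those libraries and 2.78 to 4.77 between Control libraries. Values without it are given for Gda, for the ratio of Xdh to Gda and for Slc28a2. Of the 8 genes, 5 had a mean of at least 1 FPKM and entered the fit of 10551 genes. Slc28a1 did so through its Control values alone. Ada, Nt5e and Slc28a2 lay below that mean and were read from a fit of all 20676 genes above 0. Fold changes from these limma fits are on the log2(FPKM + 1) scale, which understates the change of low genes, and adjusted p-values are Benjamini-Hochberg values over all genes of the fit.

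Positions are on GRCm38. Ada is at chr2:163726571-163750239, Slc28a2 at chr2:122426357-122461152, Slc28a1 at chr7:81113269-81170416 and Nt5e at chr9:88327609-88372089. Enpp3 is at chr10:24773814-24836195, Pnp at chr14:50944303-50953412, Xdh at chr17:73883895-73950397 and Gda at chr19:21391307-21472661.

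MMK-1 downregulated Slc28a1, Gda, Xdh, Enpp3 and, by a small amount, Pnp, and upregulated Ada and Nt5e, both from low levels. Slc28a2 did not pass the test. In the fit of 10551 genes 24.7% were lower and 48.5% were higher at an adjusted p of at most 0.05, and Gda, Xdh, Enpp3 and Pnp, each above 1 FPKM in both groups, were lower. Slc28a1 was lower too, but it entered this fit through Control alone, so its direction there was fixed in part by the filter. In the fit of 20676 genes 28.1% were higher and 15.2% were lower, and 2 of the 3 low genes were higher. At a fold change of at least 2 with p of at most 0.05, 3.65% of the 10551 genes were lower and 3.39% were higher, and Slc28a1, Gda and Xdh were among the former. The libraries of the groups did not overlap for 7 of the 8 genes. Such separation was common, since 26.3% of the 10551 genes were separated in the lower and 50.5% in the higher direction. The exact two-sided permutation test gave p = 0.1 for each of those 7 genes, which is the smallest p that 3 against 3 libraries allow. Fewer cells of a type and less RNA per cell cannot be told apart in these bulk libraries.

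**Figure D1:**
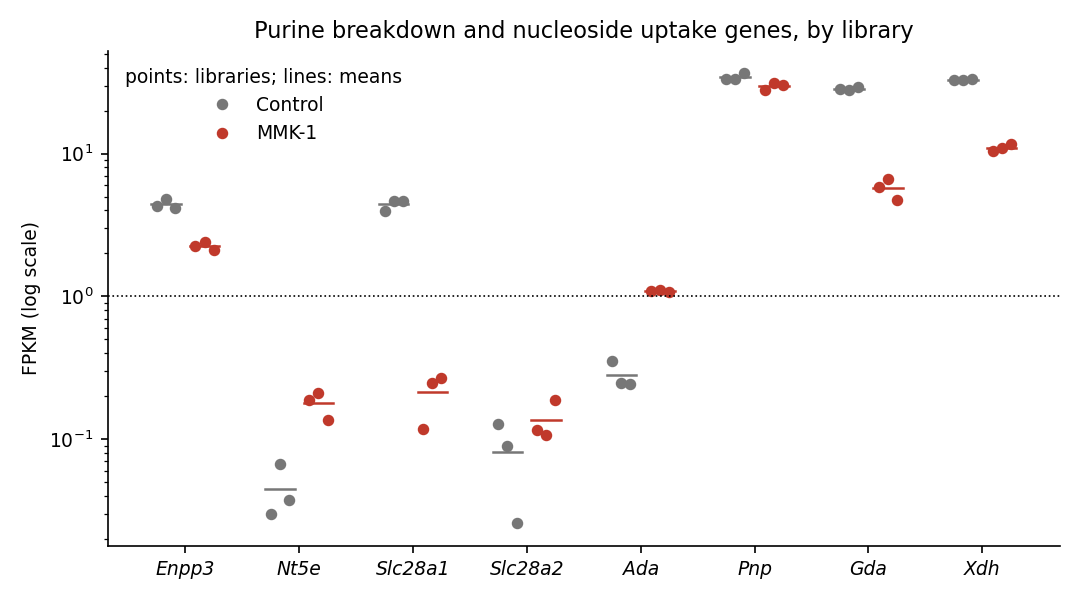
FPKM (log axis) of the 8 genes in each library, with Control in grey, MMK-1 in red, a line at each group mean and a dotted line at 1 FPKM. The groups do not overlap except for Slc28a2, and Ada, Nt5e and Slc28a2 lie under about 1.1 FPKM in every library.

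**Figure D2:**
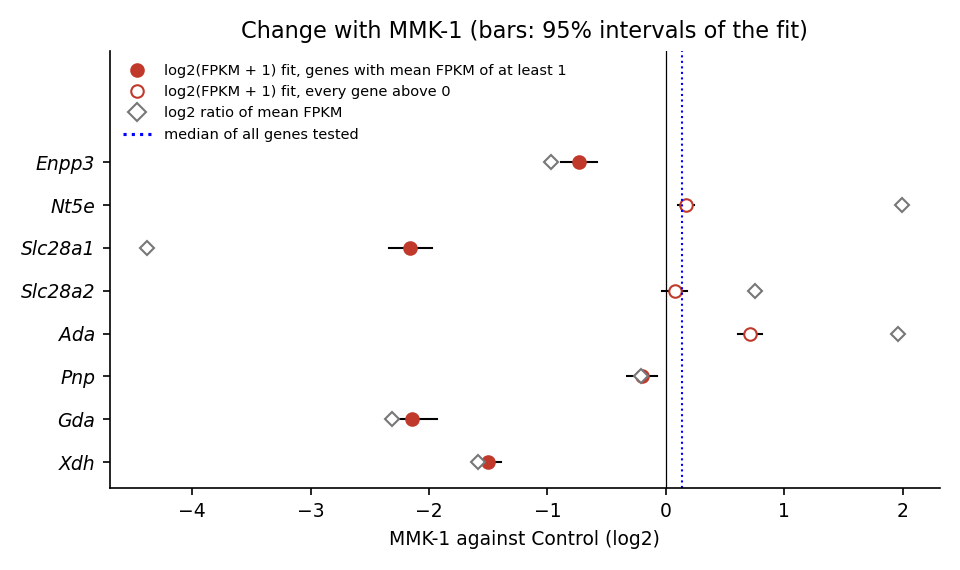
Change of the 8 genes with MMK-1 on a log2 axis, with circles for the limma fit of log2(FPKM + 1), bars for its 95% intervals, diamonds for the log2 ratio of mean FPKM and a dotted line for the median of all genes tested, 0.13. Circles and diamonds lie far apart for Slc28a1, Ada, Nt5e and Slc28a2, which were below about 1.1 FPKM in at least one group.

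Enpp3 encodes a membrane enzyme that splits nucleotide triphosphates and dinucleotides outside the cell. Control libraries had 4.28, 4.82 and 4.16 FPKM, against 2.24, 2.41 and 2.11 FPKM with MMK-1. Every MMK-1 library lay below every Control library. The means were 4.42 ± 0.35 and 2.26 ± 0.15 FPKM (SD, n = 3 each), a level 1.96-fold lower with MMK-1, with a fitted log2 fold change of -0.73 ± 0.0653 (SE) and an adjusted p of 1.3e-05 by limma. Enpp3 is also known as a surface marker of basophils and mast cells. Of 6 markers of these cells 1 was in the table, Mcpt2, and it summed to at most 0.022 FPKM in any library.

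Nt5e (CD73) turns AMP into adenosine, the step that yields a nucleoside for uptake. It was hardly detected, with 4, 9 and 5 fragments in Control, against 24, 27 and 18 fragments with MMK-1. The lowest MMK-1 library held more fragments than the highest Control library, at near equal depth. In FPKM the means were 0.0447 ± 0.0196 and 0.178 ± 0.0384 (SD, n = 3 each), a 3.98-fold difference, and the fitted log2 fold change was 0.17 ± 0.0276 (SE) with an adjusted p of 0.0038 by limma. With a pseudocount of 0.1 in place of 1 the log2 fold change was 0.94, and by limma-voom on fragments it was 1.96.

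Slc28a1 encodes a sodium-coupled carrier that takes up mainly pyrimidine nucleosides, and adenosine to a lesser degree. Its ratio of means changed the most among the 8 genes, while on the log2(FPKM + 1) scale it was within an SE of Gda. Its FPKM was 3.95, 4.62 and 4.67 in Control and 0.119, 0.249 and 0.269 in MMK-1, from 562, 659 and 663 against 16, 34 and 38 fragments. All MMK-1 libraries were far below all Control libraries, and MMK-1 replicate 1 was the lowest. The mean fell from 4.42 ± 0.402 to 0.212 ± 0.0818 FPKM (SD, n = 3 each), 20.8-fold lower. The fitted log2 fold change was -2.16 ± 0.0792 (SE), with an adjusted p of 7.1e-08 by limma in the fit that Slc28a1 entered through Control alone. In the fit of all 20676 genes above 0, without that filter, the adjusted p was 2.1e-05 by limma. The log2 fold change was -3.89 with a pseudocount of 0.1 and -4.43 by limma-voom.

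Slc28a2 encodes the related carrier that prefers purine nucleosides and uridine. It was near the limit of detection, with 20, 14 and 4 fragments in Control and 17, 16 and 29 fragments in MMK-1. The groups overlapped, and the lowest and the highest library were Control replicate 3 and MMK-1 replicate 3. The means were 0.0814 ± 0.0519 and 0.137 ± 0.0445 FPKM (SD, n = 3 each). The log2 fold change of 0.07 had a 95% interval from -0.04 to 0.18 and an adjusted p of 0.26 by limma, and the exact permutation test gave p = 0.3, so a difference was not detectable at this depth. The log2 fold change was 0.04 without MMK-1 replicate 3 and likewise without Control replicate 3, and 0.10 without Control replicate 1. The near copy Slc28a2b had 1 fragment in each of 2 MMK-1 libraries and 0 in the others.

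**Figure D3:**
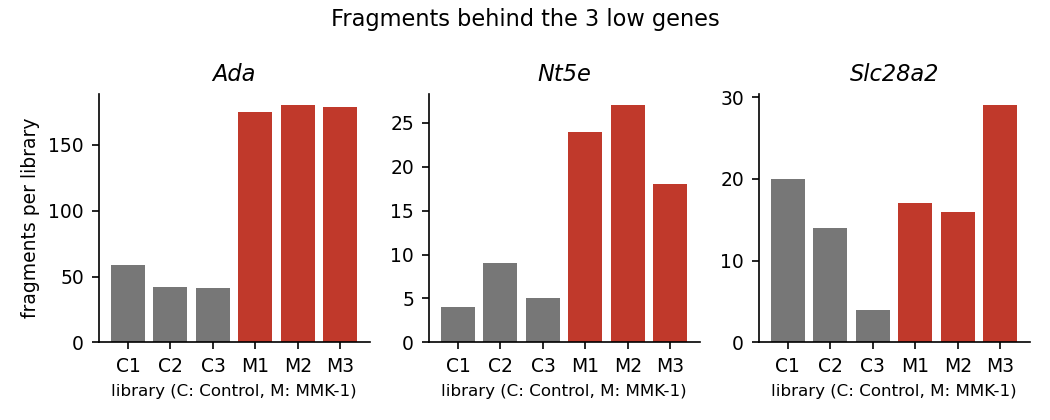
Fragments per library of Ada, Nt5e and Slc28a2, with one bar for each Control (grey) and MMK-1 (red) library and a separate axis for each gene. The Ada and Nt5e bars of MMK-1 all exceed those of Control, whereas the Slc28a2 bars overlap between 4 and 29 fragments.

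The other nucleoside carriers in the table were the Slc29 equilibrative carriers and Slc28a3. Slc29a1, which lets nucleosides pass in both directions, was upregulated from 7.62 ± 0.231 to 16.2 ± 0.513 FPKM (SD, n = 3 each), with a log2 fold change of 0.99 and an adjusted p of 2.5e-07 by limma. Slc29a3, a carrier of lysosomes, was at 3.85 ± 0.357 and 3.83 ± 0.448 FPKM and did not pass the test. Thus 1 of the 2 further carriers tested was higher and 0 were lower. Slc29a2 and Slc28a3 were below the mean of 1 FPKM and were named after their values were seen. In the fit of all genes, Slc29a2 had 0.525 and 1.37 FPKM with an adjusted p of 0.00016 by limma. Slc28a3, a broad concentrative carrier, had 1.02 and 0.762 FPKM with an adjusted p of 0.054.

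Ada deaminates adenosine to inosine and is the first step inside the cell. It was low, with 0.350, 0.249 and 0.244 FPKM in Control and 1.10, 1.11 and 1.07 FPKM in MMK-1, from 59, 42 and 41 against 175, 180 and 179 fragments. The MMK-1 libraries were close together and all above Control. The mean rose from 0.281 ± 0.0601 to 1.09 ± 0.0213 FPKM (SD, n = 3 each), 3.89-fold. The fitted log2 fold change was 0.71 ± 0.0409 (SE) with an adjusted p of 7.9e-05 by limma, and it was 1.66 with a pseudocount of 0.1 and 1.97 by limma-voom.

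Pnp splits inosine and guanosine into the base and ribose phosphate, and it was the highest of the 8 genes in MMK-1 organoids. Its FPKM was 33.2, 33.4 and 36.6 in Control and 28.01, 31.3 and 30.04 in MMK-1. The groups were close but did not overlap. The means of 34.4 ± 1.9 and 29.8 ± 1.67 FPKM (SD, n = 3 each) differed 1.15-fold, with a log2 fold change of -0.20 ± 0.0564 (SE) and an adjusted p of 0.01 by limma. The neighbouring near copy Pnp2 fell more, from 14.5 ± 0.73 to 7.48 ± 0.692 FPKM, with a log2 fold change of -0.87 and an adjusted p of 4.9e-06. The copies lie 2728 bases apart in RefSeq, with Pnp2 at chr14:50956141-50964751, and how reads shared by such near copies were counted is not stated, so the split between them is uncertain.

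Gda deaminates guanine to xanthine. Its FPKM was 28.3, 28.04 and 29.2 in Control and 5.87, 6.61 and 4.72 in MMK-1, where replicate 3 was the lowest. Every MMK-1 library was far below Control. The mean fell from 28.5 ± 0.615 to 5.73 ± 0.951 FPKM (SD, n = 3 each), 4.98-fold lower, with a log2 fold change of -2.14 ± 0.092 (SE) and an adjusted p of 1.7e-07 by limma. Without MMK-1 replicate 3 the log2 fold change was -2.03.

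Xdh oxidises hypoxanthine and xanthine to urate. Its FPKM was 32.9, 32.9 and 33.4 in Control and 10.4, 11.03 and 11.6 in MMK-1. Libraries of a group were close together, and the groups were far apart. The mean fell from 33.03 ± 0.281 to 11 ± 0.625 FPKM (SD, n = 3 each), 3-fold lower, with a log2 fold change of -1.51 ± 0.0483 (SE) and an adjusted p of 3.6e-08 by limma.

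In order of FPKM, Pnp and Xdh overlapped at the top of the Control libraries, followed by Gda, then by Enpp3 and Slc28a1, which overlapped, then by Ada, and last by Slc28a2 and Nt5e, which overlapped. In MMK-1 the order was Pnp, Xdh, Gda, Enpp3 and Ada, each separate from the next, and Slc28a1, Nt5e and Slc28a2 overlapped at the end. The FPKM of all 8 genes summed to 105 ± 2.73 in Control and 50.4 ± 2.54 in MMK-1, and without Pnp to 70.8 ± 0.884 and 20.6 ± 0.975 (SD, n = 3 each). Levels between genes depend on the gene length used. The length implied by the Ada values was 4496 bases, 2.25 times its exons in GENCODE, and that of Enpp3 was 2815 bases, 0.468 times. Per GENCODE exon length, Ada would stand at 0.631 in Control and 2.46 in MMK-1, and Enpp3 at 2.07 and 1.06, so their order in MMK-1 turns with the length. On that scale Control levels would be 5.68 for Slc28a1, above Enpp3, and 24.8 for Gda, above the 16.6 of Xdh. The ratio of mean FPKM within a gene does not depend on the length. The fitted change of log2(FPKM + 1) does, and so does the filter at 1 FPKM.

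Within the pathway, 4 pairs of neighbouring or alternative steps were compared as differences of log2(FPKM + 1) in each library. Ada over Pnp rose by 0.91 with MMK-1, and Nt5e over Enpp3 by 0.91. Slc28a2 over Slc28a1 rose by 2.23. Xdh over Gda lay at 0.21, 0.22 and 0.18 in Control and at 0.72, 0.66 and 1.14 in MMK-1, a difference of 0.64, or 0.49 without MMK-1 replicate 3. The groups did not overlap for any of the 4 pairs, and the exact two-sided permutation test gave p = 0.1 for each, also after adjustment over the 4, the smallest p that this design allows. Nt5e and Slc28a2 were so low on this scale that their ratios mainly carry the fall of Enpp3 and Slc28a1.

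Markers of mature enterocytes were mostly lower with MMK-1. Of 10 markers 9 were lower and 1 was higher (median log2 fold change -1.36), and their part in the results was not tested. The brush border peptidase Anpep had a log2 fold change of -2.84 and Apoa1, the main apolipoprotein of high-density lipoprotein, one of -2.62, whereas the fatty acid binding protein Fabp1 rose, with 0.17. The mean log2(FPKM + 1) of the 10 markers fell from 9.25 ± 0.00504 to 7.78 ± 0.0581 (SD, n = 3 each). Relative to this mean, Slc28a1 was lower in MMK-1 by 0.70 and Gda by 0.68, or by 0.53 for Gda without MMK-1 replicate 3. With a pseudocount of 0.1 the relative values were -2.42 for Slc28a1 and -0.84 for Gda. Xdh differed from the markers by -0.04, or by -0.11 with a pseudocount of 0.1. Enpp3 was higher relative to the markers by 0.73 and Pnp by 1.26. The groups did not overlap for any of these 5 genes, with p = 0.1 in the exact permutation test before and after adjustment over all 8 genes. For Ada, Nt5e and Slc28a2 the relative values were 2.17, 1.64 and 1.53, beside a change of the marker mean of -1.46. With a pseudocount of 0.1 they were 3.13, 2.41 and 1.88.

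**Figure D4:**
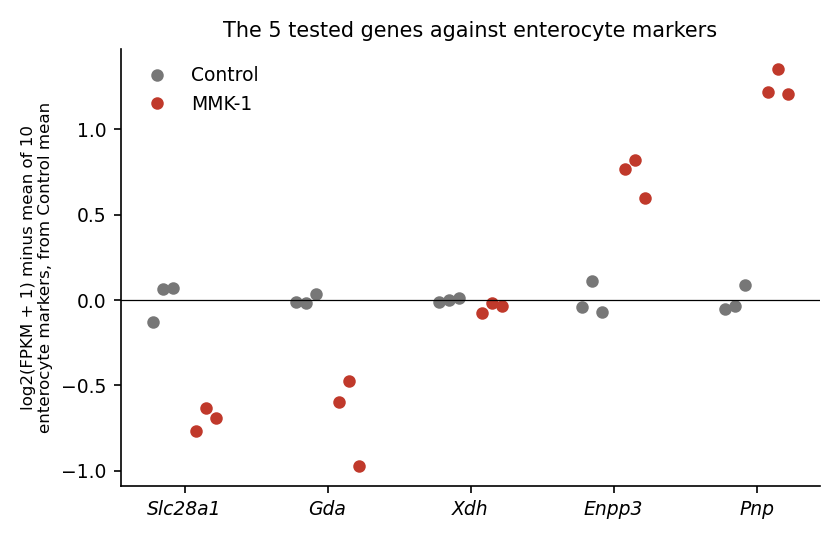
Log2(FPKM + 1) of the 5 tested genes minus the mean of 10 enterocyte markers in the same library, drawn from the Control mean of each gene, with Control in grey and MMK-1 in red. Slc28a1 and Gda fall below the markers, Xdh stays within 0.1 of them, and Enpp3 and Pnp lie above.

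The villus tip part of the name was met only in part. In Control organoids Ada, Nt5e and Slc28a2 were all below 0.4 FPKM. RNA of whole organoids does not place a transcript along an axis. Of 8 further genes known from villus tips 3 were higher and 4 were lower. The lectin gene Clec2h fell from 243.5 ± 8.25 to 15.5 ± 0.918 FPKM (SD, n = 3 each), a log2 fold change of -3.89, and the RNA-editing enzyme gene Apobec1 fell by 0.89. The immediate early genes Fos and Junb rose by 1.93 and 0.52 on the log2 scale.

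Markers of other cells were low. The sum of 6 leukocyte markers in the table lay between 5.38 and 6.19 FPKM in Control and between 1.77 and 2.89 in MMK-1. Nearly all of it was Cd68 and Itgam, which both fell. Csf1r, the macrophage growth factor receptor, fell too, with 20, 23 and 23 fragments in Control against 0, 1 and 2 with MMK-1 and an adjusted p of 8.4e-05 by limma. Ptprc, Cd3e and Tyrobp were at or near 0 in both groups. The sum of 6 stromal and endothelial markers was 1.2 to 1.35 FPKM in Control and 0.379 to 0.682 in MMK-1. The pericyte receptor Pdgfrb made up most of it in Control and fell, at 1.1 ± 0.0495 and 0.265 ± 0.0387 FPKM (SD, n = 3 each, adjusted p of 4.7e-05 by limma), whereas Col1a1, at 0.024 and 0.0526 FPKM, and Pdgfra, at 0.00193 and 0.00993 FPKM, did not fall. Of 4 epithelial markers the keratin gene Krt18 and Cdh1 were higher, with log2 fold changes of 0.44 and 0.17, the keratin gene Krt8 was lower with -0.30, and their sum was 1513 to 1517 FPKM in Control and 1385 to 1505 in MMK-1. The part of leukocyte and stromal RNA in the results was not tested.

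The genes around each step moved in both directions. Among the genes of these lists, Upb1 and Itgam (Control) and P2ry6, Abcc4 and Egfr (MMK-1) reached 1 FPKM on average in that group only, so the filter fixed their direction in part, and their calls in the counts are no support. Among the other ecto-enzymes that take phosphate from nucleotides, 1 of 4 tested was higher and 2 were lower. Entpd8, a triphosphate hydrolase of the apical membrane, fell from 16.9 ± 0.232 to 7.42 ± 0.484 FPKM. The intestinal alkaline phosphatases moved apart, with Alpi at 119 ± 2.61 and 60.6 ± 3.93 FPKM and Akp3 at 2.31 ± 0.179 and 13.3 ± 0.629 FPKM (SD, n = 3 each), log2 fold changes of -0.96 and 2.11 with adjusted p of 6e-07 and 1.6e-08 by limma. Among 9 further genes of intracellular purine breakdown 4 were higher and 1, Pnp2, was lower (median log2 fold change -0.01). Ampd2, which deaminates AMP, rose by 0.76, and the nucleotidase Nt5c3b by 0.53.

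Among genes that act after Xdh or that it needs, more were lower than higher. Xdh carries a molybdenum cofactor, and 3 of 5 genes of the synthesis of this cofactor were lower and 0 were higher (median log2 fold change -0.46). Mocos, which puts the sulfur on the cofactor of Xdh, fell from 3.9 ± 0.215 to 1.35 ± 0.196 FPKM, and Mocs2 from 51.2 ± 0.825 to 26.5 ± 1.19 FPKM (SD, n = 3 each). Among urate carriers 3 of 4 tested were lower and 1 was higher, with a median of -0.99. Slc2a9 fell by 1.31 on the log2 scale, and Slc17a4 from 54.8 ± 2.42 to 23.2 ± 1.26 FPKM (SD, n = 3 each). Abcc4, which reached 1 FPKM in MMK-1 only, rose by 0.27 on the log2 scale. For comparison, 24.7% of the 10551 genes of the fit were lower and 48.5% were higher, and their median was 0.13.

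Pyrimidine breakdown, which handles the nucleosides that Slc28a1 prefers, was lower in 4 of 4 tested genes, with a median of -0.46. Upb1, among them, entered the fit through Control alone, so its call is no support. Dpyd, its rate-limiting enzyme, fell from 69.1 ± 0.874 to 22.6 ± 1.3 FPKM (SD, n = 3 each), a log2 fold change of -1.57 with an adjusted p of 2.9e-08 by limma, and Upb1, the last enzyme, fell by 0.50. De novo purine synthesis went the other way, with 5 of 6 tested genes higher, 0 lower and a median of 0.38, against 48.5% higher and 24.7% lower among all genes of the fit. Ppat, its first committed step, rose from 5.53 ± 0.166 to 11.7 ± 0.386 FPKM and Paics from 15.8 ± 0.246 to 28.1 ± 0.94 FPKM. Of 5 genes of purine salvage 1 was higher and 3 were lower. Deoxycytidine kinase, Dck, rose by 0.84, whereas Aprt fell by 0.35 and Dguok by 0.24. Among purinergic receptors 2 of 5 tested were higher and 2 were lower. P2ry6, a receptor of UDP, rose by 1.02, but it entered the fit through MMK-1 alone. The adenosine receptor Adora1 rose by 0.75, while P2ry1 and P2rx4 fell by 0.24 and 0.22.

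**Figure D5:**
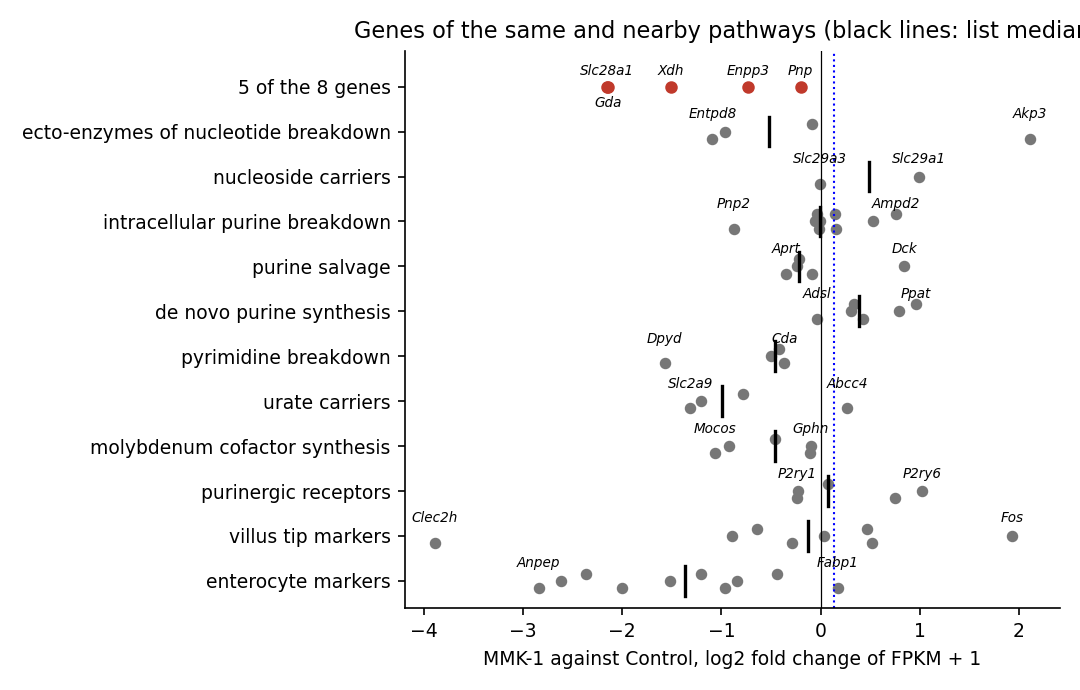
Log2 fold change of FPKM + 1 with MMK-1 for each tested gene of 11 lists (grey, lowest and highest named) and for the 5 tested genes of the pathway (red), with black lines at list medians and a dotted line at the median of all genes, 0.13. The 5 red points lie below 0, like most urate carriers and enterocyte markers, and the de novo synthesis genes lie mostly above it.

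Of the 118 other genes that the table assigns to the KEGG Purine metabolism pathway, 74 were tested, 34 were higher and 22 were lower (median log2 fold change 0.10), shares near the 48.5% and 24.7% of all genes. At a fold change of at least 2, 1 was higher and 6 were lower, where all genes had 3.39% and 3.65%. The largest falls were those of the sulfate donor synthase Papss2 (-2.15), Entpd5 (-1.22), Entpd8 (-1.09), the phosphodiesterase Pde9a (-1.09) and Fhit (-1.08). The largest rises were those of the adenylate kinase Ak4 (1.55), Ppat (0.96), Impdh1 (0.95), which directs purines to guanine nucleotides, the ribonucleotide reductase subunit Rrm2 (0.85) and Dck (0.84).

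The genes whose profile over the 6 libraries was nearest to that of Slc28a1 were Apoc3, Slc2a7 and Ifit3, at Euclidean distances of 0.13, 0.143 and 0.166 on the centred log2(FPKM + 1) scale. Apoc3, an apolipoprotein, was at 216 ± 13.2 and 48.7 ± 0.756 FPKM, the sugar carrier Slc2a7 at 20.8 ± 0.559 and 3.86 ± 0.204 FPKM, and the interferon-induced Ifit3 at 3.44 ± 0.279 and 0.0548 ± 0.0205 FPKM (SD, n = 3 each). The order of likeness uses the same contrast as the fold changes and is a description. It belongs to the log2(FPKM + 1) scale, which understates the falls of Slc28a1 and Ifit3. Ifit3, like Slc28a1, entered the fit through Control alone.

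Promoters are shown for both Slc28 carriers, of which one fell and the other did not pass the test, for Gda, which fell, and for Ada, which rose. Each window holds 250 bases before and 50 bases after a transcript start in RefSeq on GRCm38.p6, on the strand of the gene. That start is the first base of the gene except for Slc28a1 and Slc28a2, where it lies 1530 and 78 bases inside the gene span given above. Windows of 7 of the 8 genes were found, and Xdh had none. Capitals mark matches to the motifs searched. The windows are chr7:81114549-81114848 (plus strand) for Slc28a1, chr2:122426185-122426484 (plus strand) for Slc28a2, chr19:21472612-21472911 (minus strand) for Gda and chr2:163750190-163750489 (minus strand) for Ada.
Slc28a1: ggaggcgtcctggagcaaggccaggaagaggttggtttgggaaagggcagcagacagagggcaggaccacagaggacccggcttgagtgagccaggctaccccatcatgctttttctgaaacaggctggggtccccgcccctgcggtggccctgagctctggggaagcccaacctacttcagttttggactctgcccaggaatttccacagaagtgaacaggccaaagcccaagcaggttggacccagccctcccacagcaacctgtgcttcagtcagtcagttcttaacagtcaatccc
Slc28a2: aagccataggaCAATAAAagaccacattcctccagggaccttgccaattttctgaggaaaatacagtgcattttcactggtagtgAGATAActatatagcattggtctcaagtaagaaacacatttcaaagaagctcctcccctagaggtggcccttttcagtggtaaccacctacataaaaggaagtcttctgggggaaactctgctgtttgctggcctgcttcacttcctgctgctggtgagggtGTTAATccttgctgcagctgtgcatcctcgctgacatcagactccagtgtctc
Gda: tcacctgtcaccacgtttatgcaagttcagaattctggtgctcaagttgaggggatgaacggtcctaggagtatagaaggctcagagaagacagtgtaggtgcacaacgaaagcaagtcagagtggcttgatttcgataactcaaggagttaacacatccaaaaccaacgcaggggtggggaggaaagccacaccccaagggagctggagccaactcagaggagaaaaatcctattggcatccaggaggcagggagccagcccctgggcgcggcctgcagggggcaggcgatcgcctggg
Ada: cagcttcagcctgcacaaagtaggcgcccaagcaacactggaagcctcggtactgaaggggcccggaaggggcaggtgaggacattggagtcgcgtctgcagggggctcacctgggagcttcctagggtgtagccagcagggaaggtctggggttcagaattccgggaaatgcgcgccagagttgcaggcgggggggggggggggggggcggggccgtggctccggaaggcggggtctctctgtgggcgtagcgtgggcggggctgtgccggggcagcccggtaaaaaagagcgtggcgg

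Motifs of 5 factor families were searched on both strands, namely CAAAGTCCA for HNF4, TTTATNG for CDX, GTTAAT for HNF1, AGATAA for the GATA factors and TGANTCA for AP-1. In all 32851 promoters of this length they occurred in 0.475%, 10.9%, 7.1%, 11.2% and 7.81%. Only the Slc28a2 window held any of them, a CDX match that begins 239 bases before the start, a GATA match 165 bases before it and an HNF1 match 3 bases before it, all counted from the transcript start of the window. No match was found in the windows of the other 6 genes, which says only that these letters are not in these windows. The G and C content was 68% for Ada and 71% for Nt5e, the genes that rose, 58.7% for Slc28a1, 55% for Gda, 47.3% for Pnp, 46.7% for Slc28a2 and 40.7% for Enpp3, with a median of 52.7% over all promoters.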

How the data were processed

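RNA-seq was performed on 6 libraries, 3 of each group. The authors deposited FPKM values per gene. Per the labels' processing notes, HISAT2, HTSeq, R 3.2.0 and DESeq2 were used with mm10, which is GRCm38, and the parameters are not given in the sources used here. The table also holds gene numbers and KEGG pathways. FPKM values are whole fragments times a factor per gene and library. Fragments were therefore recovered to within 2e-05 of a whole number, plus a small allowance that grew with the fragment number. Fragments were obtained for the 20676 genes above 0, the other 721 being at 0 in every library, and 99.7% of each library total fell on the genes of the table. A factor shared by the length of a gene and all its fragment numbers cannot be seen, so fragments are the smallest possible. They cover counting error only.

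The test was limma 3.58.1 (R 4.3.3) with an intensity trend on log2(FPKM + 1), over genes with a mean of at least 1 FPKM, and over all genes above 0 for genes below that mean. No replicate block was used. The fit was tested on simulated data. Exact permutation tests over libraries were two-sided. The study's methods speak in general of independent experiments, and the labels do not say whether these libraries came from separate cultures, so p-values measure the spread between these libraries, which may be technical. Python 3.11.15, numpy 2.4.6, pandas 2.3.3, scipy 1.17.1 and matplotlib 3.10.9 were used. The genes and lists were chosen with earlier results of these data known. The rule named the 8 genes, in each list the 2 strongest rises and the 2 strongest falls at an adjusted p of at most 0.05 (5 for KEGG Purine metabolism), and the 3 genes nearest in profile to the gene with the largest change. Of these, Ctps is not described. Slc29a2, Slc29a3, Slc28a3, Slc28a2b and the markers Mcpt2, Csf1r, Ptprc, Cd3e, Tyrobp, Pdgfrb, Egfr, Col1a1 and Pdgfra fall outside it and were named after their values were seen. Promoters are from RefSeq and lengths from GENCODE M21. Alternatives covered scaling, filter, pseudocount, a replicate block, limma-voom on fragments, the fold threshold, the promoter window and leaving out each library. The length tolerance for fragments was tightened after the first version failed its test on simulated data, which changed no fragment number of the 8 genes. The criterion of that test was then set on genes whose length and fragments share no such factor.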

Additional observations from a re-analysis of the deposited data

How the results depend on the processing

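All 101 refits of the 8 genes under alternatives kept the direction and the side of the threshold. These are not all independent support, since filters fixed some directions in part. Slc28a1 entered the fit of 10551 genes through Control alone. At a mean of at least 0.1 FPKM, Nt5e and Slc28a2 entered through MMK-1 alone. All 92 alternative values of the ratios and of the values relative to enterocyte markers kept their direction, but not their size. With a pseudocount of 0.1, Slc28a2 over Slc28a1 went from 2.23 to 4.30, Nt5e over Enpp3 from 0.91 to 1.88, Ada over Pnp from 0.91 to 1.87 and Slc28a1 relative to the markers from -0.70 to -2.42. Leaving out each library moved the log2 fold change of Slc28a1 between -2.22 and -2.10, of Gda between -2.24 and -2.03, of Pnp between -0.24 and -0.16, of Ada between 0.69 and 0.75, of Nt5e between 0.15 and 0.20 and of Slc28a2, not called, between 0.04 and 0.10 (0.07 with all libraries). The highest adjusted p of Pnp over its alternatives was 0.048, and that of Slc28a2 was 0.55. The size of change of the low genes depended on the scale. From the pseudocount of 1 to limma-voom the log2 fold change of Nt5e went from 0.17 to 1.96 and that of Slc28a2 from 0.07 to 0.94, with an adjusted p of 0.18 by limma-voom.

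Over all genes, 358 were higher and 385 lower at a fold change of 2. The number higher was 676 with a pseudocount of 0.1, 727 by limma-voom and 1502 at a fold change of 1.5, where 855 were lower. The number lower was 486 with a pseudocount of 0.1 and 500 by limma-voom. Upper-quartile scaling gave 276 higher and 432 lower, and at the adjusted p 4395 higher and 3291 lower in place of 5118 and 2606. Leaving out a library gave 336 to 434 higher and 369 to 393 lower, with the most, 434 and 393, without MMK-1 replicate 3, where 2947 genes in place of 2606 were lower at the adjusted p. Without the bases after the start, 0 of the 7 promoters held the HNF1 motif, since the match spans the start.

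Same-numbered Control and MMK-1 libraries did not deviate together, with correlations of 0.025, -0.040 and 0.028. Such correlations cannot tell whether same-numbered libraries shared mice or a culture. With a replicate block the numbers of genes called by adjusted p were 5024 (higher) and 2543 (lower), against 5118 and 2606 without it, and the adjusted p of the 8 genes included 0.011 for Pnp and 0.39 for Slc28a2. Depth limits Slc28a2 and Nt5e, with at most 29 and 27 fragments per library.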
